A study of Homo sapiens with 12 samples.

Results

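Described here are 40 chaperone genes in A375 cells, a long-established human melanoma line, with and without the gene MAPKAPK2 and with and without the drug JQ1. They were taken by symbol from a count table of 56609 symbols, and 40 of 40 were found and tested among 21698 genes with enough counts. The first list holds 19 heat shock genes, most of them coding for proteins of the cytosol and 2 (HSPD1 and HSPE1) for mitochondrial proteins, and is called cytosolic below. The second holds 21 genes of protein folding, degradation and stress sensing in the endoplasmic reticulum (ER). The question set for the lists was how each behaved across the 4 groups of libraries. RNA depleted of ribosomal RNA was sequenced from wild-type cells kept in DMSO, wild-type cells kept in JQ1, MAPKAPK2 knockout cells kept in DMSO and MAPKAPK2 knockout cells kept in JQ1, with 3 libraries per group. JQ1 was given at 500 nM for 48 h and DMSO, its solvent, for the same time. MAPKAPK2 codes for MK2, a kinase activated by p38 in stressed cells, and JQ1 displaces BET bromodomain proteins from acetylated chromatin. The labels do not say whether the knockout is 1 clone or a pool, nor whether replicates were separate cultures, so the p-values measure only the spread between libraries, which may be technical. Sample titles call the cells without JQ1 untreated while their treatment entry says DMSO, and the treatment entry was followed.

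As background, cytosolic chaperones of the HSP70 and HSP90 families bind unfolded proteins and are induced through the transcription factor HSF1, which recognises heat shock elements in their promoters. The unfolded protein response of the ER has its own sensors, IRE1 (gene ERN1), ATF6 and PERK. Their factors, among them spliced XBP1 and cleaved ATF6, raise ER chaperones and the machinery that sends misfolded proteins to the proteasome. MK2 is best known in the heat shock field for phosphorylating the small heat shock protein HSPB1.

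Libraries held from 25316565 to 34594025 estimated counts. Levels are given as CPM, that is, scaled to a common library size, listed in the order of replicates 1, 2 and 3, and they are not scaled by transcript length, so levels of different genes are not compared. MAPKAPK2 stood at 87.9 to 92.1 CPM in wild-type DMSO, 112 to 120 CPM in wild-type JQ1, 11.1 to 13.2 CPM in knockout DMSO and 12.6 to 15.7 CPM in knockout JQ1, which fits the genotype labels. Knockout JQ1 replicate 3 stood apart from its replicates, with a chi-square per degree of freedom of 23.8 and 25.1 against them where the other replicate pairs ran from 3.21 to 7.05, and calls and sums of the lists are also given without it. Abundant noncoding RNAs (RMRP, RN7SK, RN7SL1 and RN7SL2 together) took from 9.42% to 14.6% of a library, most in that replicate. Of the melanocytic markers, SOX10 ran from 389 to 687 CPM, MITF from 25.6 to 44.1 CPM and S100B from 27.8 to 49.1 CPM, while the pigment genes PMEL, MLANA, TYR, TYRP1 and DCT did not exceed 1.45 CPM in any library. Of the 5 melanocytic markers tested, 3 were higher and 0 lower with JQ1 in each genotype (60%, against 33.1% and 34.4% of all tested genes). By genotype 1 was higher and 1 lower in each treatment (40%, against 7.92% and 8.57%). Of the undifferentiated melanoma markers, AXL ran from 179 to 500 CPM, EGFR from 19 to 28.2, NGFR from 1.28 to 9.14 and SOX9 from 0 to 0.965. All 4 had negative differences in knockout in each treatment, and 3 of the 4 passed as lower (75%, against 7.92% and 8.57% of all tested genes). The differences were largest for NGFR (-2.24 and -1.35) and SOX9 (-2.92 and -2.24 on the log2 scale). Markers of other cell types were mixed. EPCAM was at most at 0.0641 CPM and CDH1 at 0 in all 12 libraries, while the keratins KRT18 (113 to 145 CPM) and KRT8 (14.6 to 17.9 CPM) were present. PTPRC was at most at 0.283 CPM and CDH5 at most at 0.248, with CD68 at 8.76 to 16.7 and PECAM1 at 0.449 to 1.30. Of the fibroblast markers DCN ran from 0.251 to 1.04 CPM and PDGFRA from 4.25 to 12. PDGFRA was higher with JQ1 (0.64 in wild type and 0.61 in knockout) and lower in knockout (-0.50 in DMSO and -0.53 in JQ1). DCN went the other way with JQ1, lower in wild type (-1.48) and not passing in knockout (-0.83). By genotype DCN did not pass (-0.37 in DMSO and 0.27 in JQ1). The part of these markers in the results was not tested.

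Promoter sequences from RefSeq (GRCh38.p14, 250 bases before to 50 after a start) were found for 37 of the 40 genes; HSF1, CRYAB and PDIA3 were not matched. They were searched on both strands for the heat shock element as the blocks GAA, TTC and GAA (or TTC, GAA and TTC) with NN between neighbouring blocks, for the ER stress element as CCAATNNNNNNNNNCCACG and for the core TGACGTG of the UPR element. A heat shock element in these letters was present for 5 of the 17 cytosolic genes with a promoter (DNAJA1, HSP90AA1, HSP90AB1, HSPA8 and HSPD1) and for 0 of 20 ER genes, against 0.608% of the 27305 symbols in the table (0.49% of its 35116 promoters). An ER stress element was present for 7 of the 20 ER genes (CALR, CANX, CRELD2, HSP90B1, HSPA5, PDIA6 and XBP1) and for 0 of 17 cytosolic genes, against 0.0916% of all symbols (0.0769% of promoters). The UPR element core was found for HYOU1 and HSP90AB1, against 2.4% of all symbols (1.97% of promoters). A match describes letters in this window and is no evidence of binding. A missing match does not show that an element is absent, since inexact or more distant elements were not searched for. In HSPD1 the capitals cover matches that overlap each other, and they lie inside the annotated gene (197486584 to 197500274), 227 bases before a further start. The following windows of 29 bases show the motifs that set the lists apart, each read 5′ to 3′ on the strand of its gene, with the matched bases in capitals. They are chr2:197500062-197500090 for HSPD1, chr11:123062171-123062199 for HSPA8 and chr14:102087112-102087140 for HSP90AA1, all on the minus strand, then chr9:125241386-125241414 for HSPA5 and chr22:28800598-28800626 for XBP1 on the minus strand and chr19:12938379-12938407 for CALR on the plus strand, where the element lies on the opposite strand of the gene.
HSPD1: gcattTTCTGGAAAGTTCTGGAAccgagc
HSPA8: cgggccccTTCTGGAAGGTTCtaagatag
HSP90AA1: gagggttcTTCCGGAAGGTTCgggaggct
HSPA5: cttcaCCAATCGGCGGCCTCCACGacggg
XBP1: gctggCCAATCGCGGAGGGCCACGaccgt
CALR: ccacgCGTGGTCGACCATCATTGGtcggt

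Summed over each list, the level of the ER genes separated the 4 groups, and that of the cytosolic genes did so less. The 21 ER genes summed to 4775, 4707 and 4796 CPM in wild-type DMSO, 5872, 5954 and 5818 CPM in wild-type JQ1, 5370, 5127 and 5273 CPM in knockout DMSO, and 6740, 6573 and 6412 CPM in knockout JQ1. No groups overlapped in this sum, which was lowest in wild-type DMSO and highest in knockout JQ1. The 19 cytosolic genes summed to 6367, 6063 and 6174 CPM in wild-type DMSO, 7013, 6885 and 6958 CPM in wild-type JQ1, 6848, 6331 and 6480 CPM in knockout DMSO, and 7706, 7664 and 6614 CPM in knockout JQ1. Here the genotypes overlapped in each treatment, and the knockout groups overlapped because JQ1 replicate 3 lay below DMSO replicate 1. The mean ER sum with JQ1 was 1.24 times that with DMSO in wild type and 1.25 times in knockout, and the mean cytosolic sum was 1.12 times in each genotype. Without knockout JQ1 replicate 3 the knockout ratios were 1.27 for the ER sum and 1.17 for the cytosolic sum. These ratios depended on the scaling: with library totals they were 1.13 and 1.16 for the ER sum and 1.03 and 1.03 for the cytosolic sum. The ER sum divided by the cytosolic sum does not depend on it, and ran from 0.75 to 0.777 in wild-type DMSO, 0.784 to 0.814 in knockout DMSO, 0.836 to 0.865 in wild-type JQ1 and 0.858 to 0.969 in knockout JQ1 (0.858 and 0.875 without replicate 3). It was higher with JQ1 than with DMSO in every library of each genotype. Sums follow the most abundant members, and no test was run on them.

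**Figure D1:**
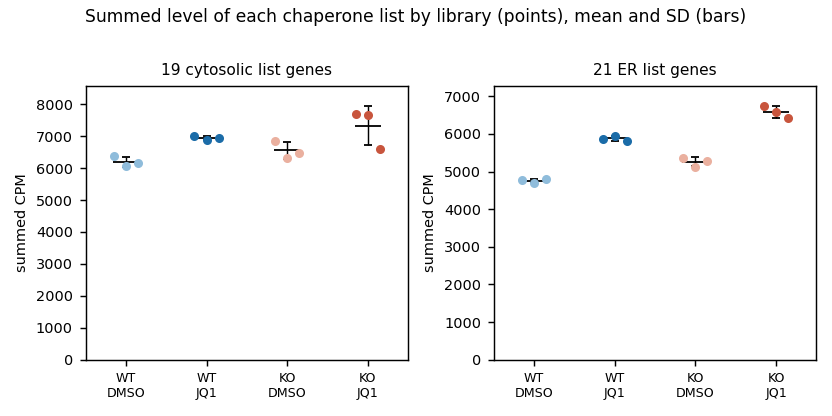
Summed CPM of the 19 cytosolic list genes (left) and the 21 ER list genes (right) in each of the 12 libraries; points are libraries, bars the mean and SD of 3. The ER sums run from 4707 to 4796 CPM in wild-type DMSO and from 6412 to 6740 CPM in knockout JQ1, and 1 knockout JQ1 library is low in the cytosolic panel.

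With JQ1, part of each list rose in wild-type cells. These were HSPA1A, HSPA1B, DNAJB1, STIP1, BAG3 and HSP90AA1 among the cytosolic genes, and 12 ER genes led by HYOU1, PDIA4 and HSPA5. The small heat shock genes HSPB8 and CRYAB fell. Every adjusted p and SE below comes from the quasi-likelihood F-test of edgeR, adjusted by Benjamini-Hochberg over all tested genes. By it, 6 cytosolic genes rose and 2 fell (42.1% of 19) and 12 ER genes rose and 0 fell (57.1% of 21), at an adjusted p under 0.05. Of all tested genes 33.1% passed, 16.9% higher and 16.2% lower. Most members are well expressed, and of those tested genes that averaged 5 CPM or more, a background chosen after the data were seen, 46.4% passed, 28.3% higher and 18.1% lower. The cytosolic share lay between these 2 backgrounds. It includes the calls of HSPB8 and CRYAB, which averaged under 5 CPM and so have no place in the second. The 6 higher calls among the 19 cytosolic genes were near the 28.3% higher in that second background. The median log2 fold change was 0.11 for the cytosolic list and 0.26 for the ER list, against -0.03 for all tested genes and 0.05 for those of at least 5 CPM.

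In knockout cells JQ1 raised 8 cytosolic genes and lowered 2 (52.6% of 19), and raised 14 ER genes and lowered 0 (66.7% of 21). The same genes HSPA1A, HSPA1B, DNAJB1, STIP1, BAG3, HSPB8 and CRYAB passed in each genotype, 7 of the 8 wild-type and 7 of the 10 knockout calls of the cytosolic list, all in the same direction. On the ER list 10 genes were shared, 10 of 12 and 10 of 14, namely CALR, CANX, DNAJC3, EDEM1, HSPA5, HYOU1, MANF, PDIA4, SDF2L1 and SYVN1. The JQ1 comparisons of the genotypes share no library, though the model gave them one estimate of the spread. How many calls of all tested genes were shared was not counted, so this overlap was not shown to be particular to the lists. Of all tested genes 34.4% passed in knockout, 16.7% higher and 17.8% lower, and of those with at least 5 CPM 49.1%, 27.3% higher and 21.9% lower. The medians were 0.14 for the cytosolic list, 0.24 for the ER list and 0.00 for all tested genes.

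**Figure D2:**
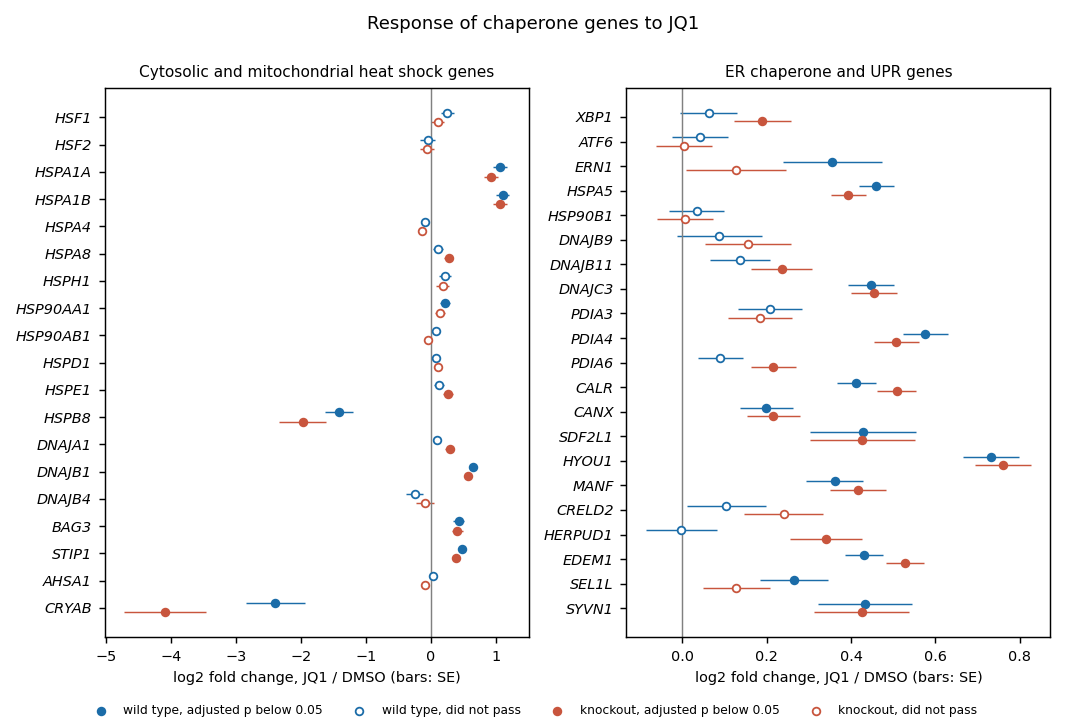
Log2 fold change of JQ1 over DMSO for each cytosolic list gene (left) and ER list gene (right), in wild type (blue) and knockout (red); bars are SE, and filled points passed an adjusted p of 0.05 by edgeR. The horizontal scales of the panels differ. HSPA1A and HSPA1B lie near 1 on the left, HSPB8 and CRYAB far below 0, and 20 of 21 wild-type and 21 of 21 knockout ER points lie above 0.

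Neither heat shock factor gene passed with all libraries. HSF1, the main activator of the heat shock response, was at 38.4, 41.9 and 37.7 CPM in wild-type DMSO, 50.8, 46.2 and 43.7 in wild-type JQ1, 37.6, 44.5 and 43.7 in knockout DMSO and 40.8, 42 and 52.9 in knockout JQ1. Wild-type libraries with and without drug did not overlap and knockout libraries did. The log2 fold change with JQ1 was 0.25 (SE 0.10, adjusted p 0.0648) in wild type and 0.11 (SE 0.10, adjusted p 0.443) in knockout. HSF2, a related factor, had -0.05 and -0.06 (adjusted p 0.782 and 0.742). Without knockout JQ1 replicate 3 HSF1 rose in wild type by 0.26 (SE 0.07, adjusted p 0.0111).

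The stress-inducible HSP70 genes rose with JQ1 in each genotype. HSPA1A was at 36.7, 35.7 and 35.5 CPM in wild-type DMSO and 83.9, 73.5 and 68.5 in wild-type JQ1, and at 32.4, 41.8 and 37.3 in knockout DMSO and 63.4, 67.7 and 80.8 in knockout JQ1. With drug all 6 libraries lay above all 6 without. HSPA1B was at 29.3, 32.8 and 34.9 CPM and 72.4, 71 and 65.2 CPM in the wild-type groups, and at 31.2, 32.8 and 33.1 and 57.6, 65.1 and 79.9 in the knockout groups. It was likewise higher in every JQ1 library than in any DMSO library. HSPA1A rose by 1.06 (SE 0.10, adjusted p 2.43e-06) in wild type and by 0.93 (SE 0.10, adjusted p 8e-06) in knockout on the log2 scale. For HSPA1B the rises were 1.10 (SE 0.10, adjusted p 1.46e-06) and 1.06 (SE 0.10, adjusted p 1.8e-06). The genes are near identical, so reads can be divided between them arbitrarily. Their sum, which avoids this, ran from 66 to 70.5 CPM in wild-type DMSO, 134 to 156 in wild-type JQ1, 63.6 to 74.5 in knockout DMSO and 121 to 161 in knockout JQ1.

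The constitutive HSP70 gene HSPA8 behaved otherwise. It was at 1621, 1539 and 1578 CPM in wild-type DMSO, 1758, 1674 and 1687 in wild-type JQ1, 1628, 1508 and 1589 in knockout DMSO and 2058, 2043 and 1607 in knockout JQ1. Knockout JQ1 replicate 3 lay within the DMSO range and the other replicates of that group far above it. HSPA8 did not pass in wild type, with 0.11 (SE 0.08, adjusted p 0.286), and rose by 0.27 (SE 0.08, adjusted p 0.0109) in knockout. HSPA4 and HSPH1, HSP110-type exchange factors for HSP70, did not pass in either genotype, with log2 fold changes of -0.09 and -0.13 for HSPA4 and 0.22 and 0.18 for HSPH1. Without knockout JQ1 replicate 3 HSPH1 passed in each genotype (0.22 with adjusted p 0.00701, and 0.32 with adjusted p 0.00146), and HSPA8 passed in wild type (0.11, adjusted p 0.0324). HSPA8 and HSP90AB1 have many processed pseudogenes, so that part of their reads is uncertain.

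Among the cochaperones of HSP70, DNAJB1 and BAG3 rose with JQ1 in each genotype. DNAJB1, the J-domain partner of inducible HSP70, was at 124, 122 and 127 CPM in wild-type DMSO and 198, 197 and 191 in wild-type JQ1. In knockout it was at 132, 125 and 135 and 193, 190 and 201. No library with drug overlapped one without, and the rises were 0.65 (SE 0.05, adjusted p 2.12e-07) in wild type and 0.57 (SE 0.05, adjusted p 6.42e-07) in knockout. BAG3, which links HSP70 to small heat shock proteins in selective autophagy, rose by 0.43 (SE 0.08, adjusted p 0.00114) and 0.41 (SE 0.08, adjusted p 0.00161). DNAJA1, another J-domain partner, was at 183, 172 and 177 CPM, 188, 188 and 193 CPM, 201, 178 and 175 CPM and 238, 231 and 207 CPM in wild-type DMSO, wild-type JQ1, knockout DMSO and knockout JQ1. It rose by 0.29 (SE 0.06, adjusted p 0.00282) in knockout, and did not pass in wild type (0.10, adjusted p 0.269). DNAJB4 did not pass in either genotype.

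For HSP90 itself the changes were small, and the clearest rise was in STIP1, the adaptor that passes clients from HSP70 to HSP90. STIP1 rose by 0.47 (SE 0.05, adjusted p 3.4e-06) in wild type and 0.39 (SE 0.05, adjusted p 1.77e-05) in knockout. HSP90AA1, the inducible HSP90 gene, was at 1394, 1288 and 1292 CPM in wild-type DMSO, 1529, 1509 and 1592 in wild-type JQ1, 1925, 1721 and 1715 in knockout DMSO and 2125, 2117 and 1684 in knockout JQ1. It rose by 0.22 (SE 0.08, adjusted p 0.0423) in wild type and did not pass in knockout (0.14, adjusted p 0.176), where replicate 3 lay below all 3 DMSO libraries. Without that replicate it rose in knockout by 0.25 (SE 0.05, adjusted p 0.00198). The constitutive gene HSP90AB1 was at 1404, 1340 and 1363 CPM, 1451, 1452 and 1432 CPM, 1518, 1446 and 1475 CPM and 1485, 1440 and 1394 CPM in the same order. It passed in neither genotype (0.08 and -0.04, adjusted p 0.181 and 0.522). AHSA1, which stimulates the ATPase of HSP90, had 0.03 and -0.08 and did not pass.

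The small heat shock genes HSPB8 and CRYAB went the other way from the inducible HSP70 genes. HSPB8, the partner of BAG3, was at 2.03, 1.81 and 1.92 CPM in wild-type DMSO and 0.754, 0.557 and 0.828 in wild-type JQ1, and at 0.353, 0.515 and 0.456 in knockout DMSO and 0.0762, 0.122 and 0.127 in knockout JQ1. No groups overlapped, and HSPB8 fell with JQ1 by 1.41 on the log2 scale in wild type (SE 0.22, adjusted p 0.000158) and by 1.97 in knockout (SE 0.36, adjusted p 0.000639). CRYAB, alpha-B-crystallin, was at 0.805, 0.744 and 1.04 CPM and 0.22, 0.148 and 0.118 CPM in wild type, and at 0.609, 0.824 and 0.632 CPM and 0.114, 0 and 0 CPM in knockout. The call was lower in each genotype (adjusted p 0.000902 and 0.00014), on few counts. CRYAB had 15 counts in wild-type JQ1 against 86 in DMSO, a ratio of 0.185 (95% exact binomial interval 0.0993 to 0.322, counting error only). In knockout it had 3 against 61 counts, a ratio of 0.0529 (0.0106 to 0.162). In bulk libraries fewer expressing cells and less RNA per cell cannot be told apart.

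The mitochondrial chaperonin genes HSPD1 and HSPE1, whose products fold imported proteins together, had smaller values with JQ1 than the inducible HSP70 genes. HSPD1 did not pass in wild type (0.08, adjusted p 0.365) or in knockout (0.11, adjusted p 0.17), where it rose by 0.18 (adjusted p 0.0109) without JQ1 replicate 3. HSPE1 rose in knockout by 0.26 (SE 0.08, adjusted p 0.0144) and did not pass in wild type (0.13, adjusted p 0.199).

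**Figure D3:**
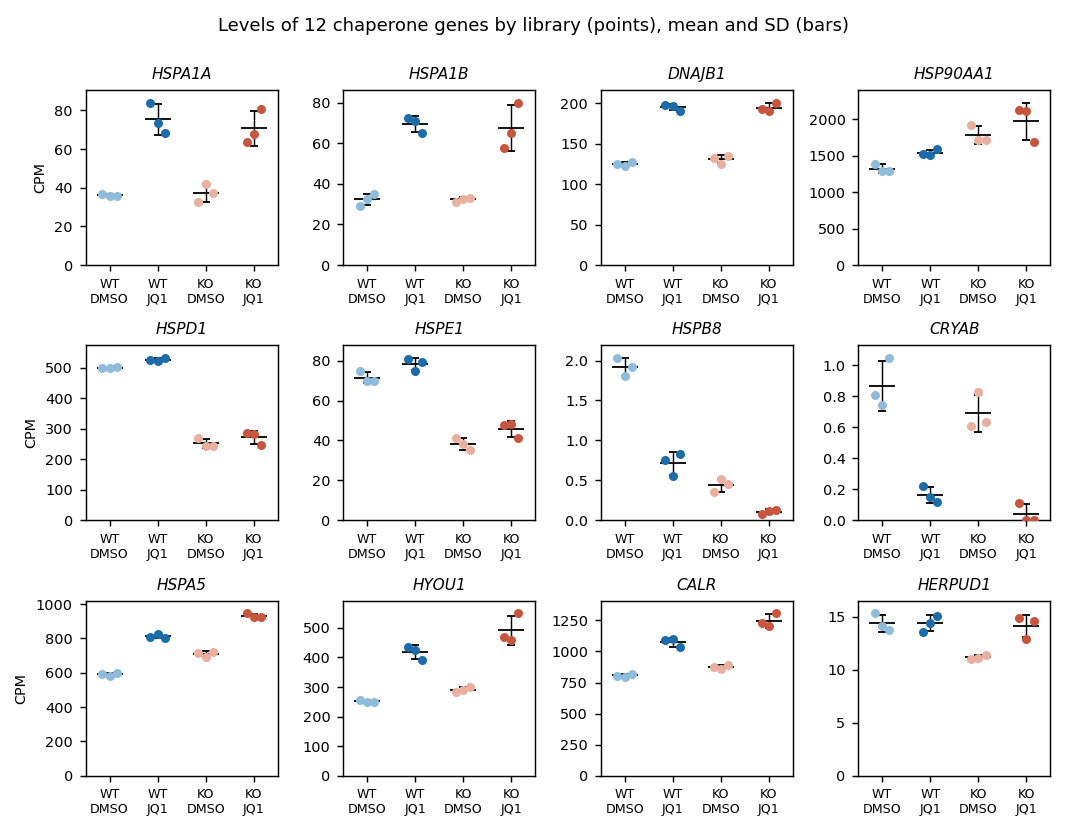
CPM of 12 chaperone genes in each library of the 4 groups (WT, wild type; KO, MAPKAPK2 knockout); points are libraries, bars the mean and SD of 3, and each panel has its own vertical scale from 0. HSPA1A, HSPA1B and DNAJB1 separate by drug, HSPD1 and HSPE1 by genotype, and HSPB8 by both.

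On the ER list, few of the stress sensors and factors passed. XBP1, the factor spliced by IRE1, was at 50.3, 55 and 58.2 CPM in wild-type DMSO, 56.6, 60.2 and 53.9 in wild-type JQ1, 55.5, 52 and 55.7 in knockout DMSO and 64.4, 60.7 and 61 in knockout JQ1. Knockout libraries with drug lay above those without, and wild-type libraries overlapped. XBP1 rose by 0.19 (SE 0.07, adjusted p 0.0417) in knockout and did not pass in wild type (0.06, adjusted p 0.526). Counts per gene do not show its splicing. ERN1, the gene of IRE1, rose in wild type by 0.36 (SE 0.12, adjusted p 0.0297) and did not pass in knockout (0.13, adjusted p 0.457), and ATF6 passed in neither.

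The HSP70 system of the ER rose in most of its members. HSPA5, the gene of BiP, the HSP70 of the ER and a repressor of the stress sensors, was at 594, 579 and 598 CPM in wild-type DMSO and 809, 824 and 802 in wild-type JQ1. In knockout it was at 717, 691 and 724 CPM in DMSO and 946, 928 and 926 in JQ1. The 4 groups did not overlap, and HSPA5 rose with JQ1 by 0.46 (SE 0.04, adjusted p 1.17e-06) in wild type and 0.39 (SE 0.04, adjusted p 4.18e-06) in knockout. HYOU1, the nucleotide exchange factor of BiP, was at 255, 248 and 251 CPM and 436, 426 and 390 CPM in wild type, and at 282, 291 and 299 and 469, 460 and 549 in knockout. This was the largest rise on the ER list in each genotype, 0.73 (SE 0.07, adjusted p 1.17e-06) and 0.76 (SE 0.07, adjusted p 6.47e-07), and every JQ1 library lay above every DMSO library. The BiP cochaperone DNAJC3 rose by 0.45 (SE 0.05, adjusted p 1.86e-05) and 0.45 (SE 0.05, adjusted p 1.35e-05), and SDF2L1, which works with DNAJB11, by 0.43 (SE 0.13, adjusted p 0.0161) and 0.43 (SE 0.12, adjusted p 0.0151). DNAJB11 passed in knockout, with 0.24 (SE 0.07, adjusted p 0.0193) there and 0.14 (adjusted p 0.166) in wild type. HSP90B1, the HSP90 of the ER, did not pass (0.03 and 0.01), nor did DNAJB9 (0.09 and 0.16).

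Disulfide isomerases and lectin chaperones rose in part. PDIA4 was at 250, 247 and 249 CPM in wild-type DMSO, 372, 383 and 357 in wild-type JQ1, 289, 285 and 293 in knockout DMSO and 400, 389 and 443 in knockout JQ1. It rose by 0.58 (SE 0.05, adjusted p 1.55e-06) and 0.51 (SE 0.05, adjusted p 4.25e-06), with no overlap between drug and DMSO. PDIA6 was at 248, 248 and 257 CPM, 272, 267 and 262 CPM, 282, 273 and 284 CPM and 349, 316 and 309 CPM in that order, and rose in knockout by 0.22 (SE 0.05, adjusted p 0.00502) but did not pass in wild type (0.09, adjusted p 0.213). PDIA3, the partner of the lectin chaperones, had 0.21 (adjusted p 0.0503) and 0.18 (adjusted p 0.0775) and did not pass. CALR, calreticulin, which holds glycoproteins until they fold, was at 804, 797 and 818 CPM and 1091, 1098 and 1032 CPM in wild type, and at 875, 861 and 892 CPM and 1230, 1202 and 1306 CPM in knockout. All JQ1 libraries exceeded all DMSO libraries, and CALR rose by 0.41 (SE 0.05, adjusted p 8.15e-06) and 0.51 (SE 0.05, adjusted p 9.49e-07). Its membrane-bound relative CANX, calnexin, rose by 0.20 (SE 0.06, adjusted p 0.024) and 0.22 (SE 0.06, adjusted p 0.015).

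Of the genes of ER-associated degradation, EDEM1 and SYVN1 rose in each genotype. EDEM1, which marks misfolded glycoproteins for removal, was at 174, 170 and 173 CPM in wild-type DMSO, 231, 237 and 229 in wild-type JQ1, 177, 181 and 181 in knockout DMSO and 254, 265 and 259 in knockout JQ1. Drug and DMSO libraries did not overlap, with rises of 0.43 (SE 0.04, adjusted p 4.22e-06) and 0.53 (SE 0.04, adjusted p 4.84e-07). SYVN1, the ubiquitin ligase of this pathway, rose by 0.43 (SE 0.11, adjusted p 0.00771) and 0.43 (SE 0.11, adjusted p 0.00852), and its partner SEL1L by 0.26 (SE 0.08, adjusted p 0.0192) in wild type, with 0.13 (adjusted p 0.248) in knockout. HERPUD1, a small membrane protein of the same complex, did not pass in wild type (-0.00, adjusted p 0.983) and rose in knockout by 0.34 (SE 0.09, adjusted p 0.00645). Of the secreted stress proteins, MANF rose by 0.36 (SE 0.07, adjusted p 0.000733) and 0.42 (SE 0.07, adjusted p 0.000191) and CRELD2 did not pass (0.10 and 0.24).

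Genes with and without a motif were both among those that rose. In wild type 3 of the 7 ER genes with an ER stress element rose, and 9 of the 13 with a promoter but no match. In knockout these counts were 5 of 7 and 9 of 13. Of the 5 cytosolic genes with a heat shock element, 1 rose in wild type and 2 in knockout, against 5 and 6 of the 12 without a match. HSPA1A, HSPA1B and HYOU1, with the largest rises, held no exact match to the heat shock or ER stress element of their list, though HYOU1 held the UPR element core. No test was run on these counts.

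Several of the smaller JQ1 calls depended on single libraries, and the adjusted p that each then took is given. In wild type HSP90AA1 was lost when any of the 6 wild-type libraries, or knockout DMSO replicate 2 or 3, was left out (0.0506 to 0.134). The calls of ERN1 (0.0567 to 0.0855), CANX (0.0562 to 0.0908) and SEL1L (0.0504 to 0.077) each ended on leaving out any of the 3 libraries of wild-type DMSO, or replicate 2 or 3 of wild-type JQ1. SDF2L1 needed replicate 1 of wild-type DMSO (0.0741) and replicate 1 of wild-type JQ1 (0.058). In knockout HSPA8 needed DMSO replicate 2 (0.061) and JQ1 replicate 2 (0.0505), and HSPE1 needed DMSO replicate 3 (0.0788) and JQ1 replicates 1 (0.0503) and 2 (0.0563). DNAJB11 needed knockout DMSO replicates 2 (0.118) and 3 (0.06) and JQ1 replicate 2 (0.0544). CANX needed knockout DMSO replicates 2 (0.0823) and 3 (0.0578) and JQ1 replicate 1 (0.0681), and SDF2L1 needed DMSO replicate 1 (0.0592) and JQ1 replicate 3 (0.0647). XBP1 was lost on leaving out any library of knockout DMSO, replicate 1 or 2 of knockout JQ1, replicate 2 of wild-type DMSO or replicate 1 of wild-type JQ1 (0.056 to 0.162). Fitting only the 6 knockout libraries ended the calls of HSPA8, HSPE1, XBP1, DNAJB11, PDIA6 and CANX (0.056 to 0.11), and testing only genes of at least 5 CPM ended those of HSP90AA1 (0.116), CANX (0.0846) and SEL1L (0.0509) in wild type and XBP1 (0.0589) in knockout. XBP1 was also lost with no low-count filter (0.116). Without knockout JQ1 replicate 3 the counts were 9 higher and 2 lower cytosolic genes in wild type and 11 higher and 2 lower in knockout, and 13 and 14 higher ER genes, where 38% and 33.6% of all tested genes passed. The calls gained were HSF1, HSPA8, HSPH1 and PDIA3 in wild type and HSPH1, HSP90AA1, HSPD1 and SEL1L in knockout, and SDF2L1 was lost in knockout.

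Scaling by library totals moved the median of all tested genes from -0.03 to -0.16 in wild type and from 0.00 to -0.12 in knockout. With it 5 cytosolic genes were higher and 4 lower in wild type, 5 higher and 5 lower in knockout, and 8 ER genes higher and 0 lower in each. Among all genes the calls were then 2298 higher and 5368 lower in wild type (3665 and 3522 with TMM) and 2409 and 5250 in knockout (3616 and 3856 with TMM). Library totals ended the wild-type calls of HSP90AA1, ERN1, CANX, SDF2L1 and SEL1L (0.0641 to 0.455) and the knockout calls of HSPA8, HSPE1, DNAJA1, XBP1, DNAJB11, PDIA6, CANX, SDF2L1 and HERPUD1 (0.0559 to 0.419). The cytosolic median turned to -0.02 in wild type under this scaling, while the ER medians were 0.14 and 0.12.

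In knockout cells without drug, the mitochondrial chaperonin genes HSPD1 and HSPE1 and the small heat shock gene HSPB8 were lower than in wild type, and HSP90AA1, HSPA5, PDIA3 and PDIA4 were higher. By the edgeR test 1 cytosolic gene was higher and 3 were lower, and 3 ER genes were higher and 1 was lower. Of all tested genes 7.92% passed, 3.47% higher and 4.44% lower, and of those of at least 5 CPM 10.4%, 5.57% higher and 4.78% lower. In total 21.1% of the cytosolic and 19% of the ER genes passed. The medians were 0.06 for the cytosolic list, 0.12 for the ER list and 0.00 for all tested genes. Under JQ1 the knockout had 2 higher and 3 lower cytosolic genes (26.3%) and 7 higher and 0 lower ER genes (33.3%), where 8.57% of all tested genes passed, 3.01% higher and 5.56% lower, and 11.5% of those of at least 5 CPM, 4.63% higher and 6.87% lower. The medians under JQ1 were -0.01, 0.16 and 0.00. On the cytosolic list 4 genes were shared, 4 of 4 and 4 of 5, and on the ER list 2 (HSPA5 and PDIA3), 2 of 4 and 2 of 7. The sharing of calls among all tested genes was not counted here either.

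HSPD1 and HSPE1 had about the same relative difference. HSPD1 was at 497, 498 and 500 CPM in wild-type DMSO, 526, 520 and 530 in wild-type JQ1, 270, 243 and 243 in knockout DMSO and 285, 283 and 248 in knockout JQ1. All 6 knockout libraries lay far below all 6 wild-type libraries. The log2 difference of knockout from wild type was -0.99 (SE 0.06, adjusted p 9.45e-08) in DMSO and -0.95 (SE 0.06, adjusted p 1.33e-07) in JQ1. HSPE1 was at 74.8, 69.9 and 69.8 CPM, 80.5, 74.7 and 79.2 CPM, 41, 38.1 and 35.2 CPM and 47.7, 48.2 and 41.3 CPM in the same order, again with no overlap between genotypes. Its log2 difference was -0.91 (SE 0.07, adjusted p 2e-06) in DMSO and -0.77 (SE 0.07, adjusted p 8.7e-06) in JQ1. The genes lie head to head on opposite strands of chromosome 2, with 104 bases between them in the RefSeq annotation, and their promoter windows share 204 bases. These windows are those of the starts at the facing ends of the annotated genes. The heat shock element shown above for HSPD1 belongs to a further start and lies outside the bases that these windows share. The stretch between the genes, chr2:197500275-197500378 of GRCh38.p14 read on the plus strand, the strand of HSPE1, is shown because it holds the bases upstream of both facing starts.
HSPD1-HSPE1: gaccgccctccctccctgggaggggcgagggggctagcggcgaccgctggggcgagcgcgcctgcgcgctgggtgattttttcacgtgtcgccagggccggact

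HSPB8 combined the differences by genotype and by drug. The log2 difference of knockout from wild type was -2.12 (SE 0.23, adjusted p 3.77e-05) in DMSO and -2.68 (SE 0.34, adjusted p 0.000117) in JQ1, and the knockout JQ1 libraries, at 0.0762, 0.122 and 0.127 CPM, were the lowest of the 12. They held 9 counts in all against 67 in wild-type JQ1, a ratio of 0.151 (95% exact binomial interval 0.0661 to 0.304). CRYAB did not pass in DMSO (-0.33, adjusted p 0.701) or in JQ1 (adjusted p 0.148), where it had 3 against 15 counts, a ratio of 0.224 (0.0417 to 0.794).

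HSP90AA1 was higher in knockout by 0.43 (SE 0.08, adjusted p 0.00248) in DMSO and 0.36 (SE 0.08, adjusted p 0.00948) in JQ1, whereas HSP90AB1 did not pass in either (0.11 and -0.01). DNAJA1 was higher by 0.25 (SE 0.06, adjusted p 0.0263) under JQ1, with 0.06 (adjusted p 0.695) in DMSO. The cytosolic genes with the largest rises under JQ1 showed no call by genotype: HSPA1A had 0.05 and -0.09, HSPA1B 0.00 and -0.04, and DNAJB1 0.07 and -0.01, with SEs of 0.05 to 0.11. HSF1 had 0.09 (adjusted p 0.682) and -0.05 (adjusted p 0.842), and HSPA8 -0.00 (adjusted p 0.986) and 0.16 (adjusted p 0.255).

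On the ER list HSPA5 was higher in knockout by 0.27 (SE 0.04, adjusted p 0.000809) in DMSO and 0.20 (SE 0.04, adjusted p 0.00636) in JQ1, and its libraries did not overlap in either treatment. PDIA3 was higher by 0.39 (SE 0.08, adjusted p 0.00475) in DMSO, where its levels were 38.8, 35.6 and 34.5 CPM in wild type and 49.1, 47.5 and 46 CPM in knockout, and by 0.36 (SE 0.08, adjusted p 0.00727) in JQ1, with 44.5, 41.6 and 39.7 CPM and 58.6, 48.7 and 54.4 CPM. PDIA4 passed in DMSO (0.22 (SE 0.05, adjusted p 0.02)) and had 0.15 (adjusted p 0.111) in JQ1. Under JQ1 CALR (0.21), EDEM1 (0.16), HYOU1 (0.24), MANF (0.28) and PDIA6 (0.28) were higher in knockout, at adjusted p-values from 0.00318 to 0.039. In DMSO their differences had the same sign and did not pass, from 0.06 for EDEM1 to 0.23 for MANF. HERPUD1 was the ER gene lower in knockout DMSO, at 11, 11.2 and 11.4 CPM against 15.3, 14.2 and 13.8 in wild type, a difference of -0.37 (SE 0.09, adjusted p 0.0142). With JQ1 it was at 14.9, 12.9 and 14.6 CPM in knockout and 13.6, 14.4 and 15.1 CPM in wild type, and did not pass (-0.02, adjusted p 0.918). XBP1 passed in neither treatment (-0.00 and 0.12).

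**Figure D4:**
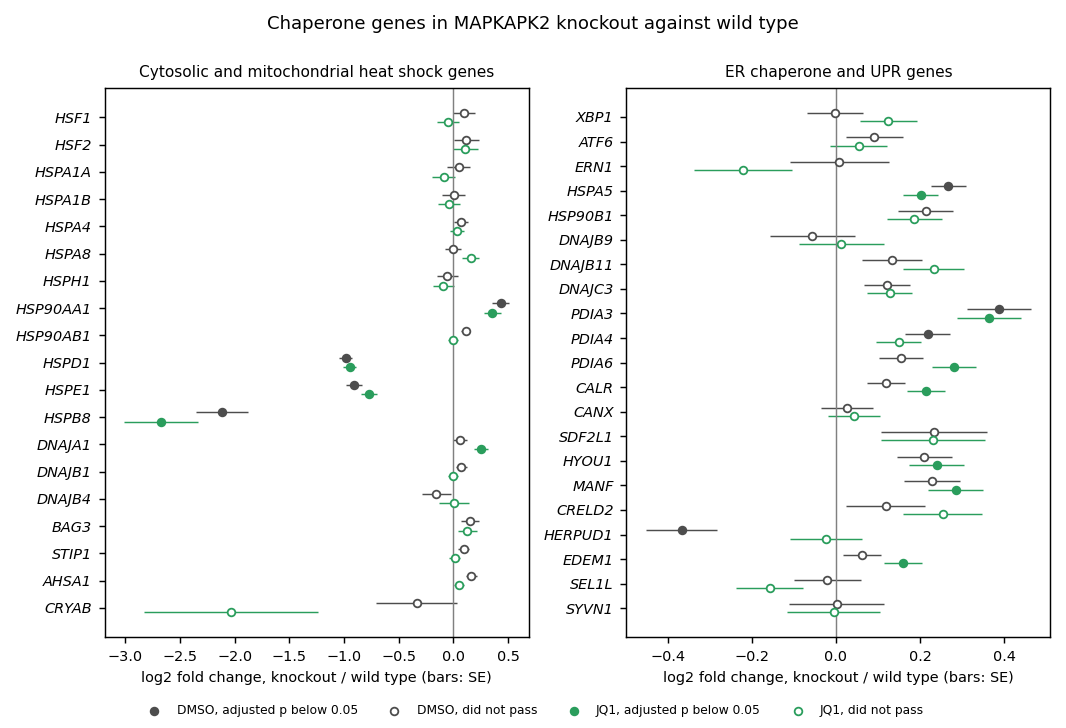
Log2 fold change of knockout over wild type for each cytosolic list gene (left) and ER list gene (right), in DMSO (grey) and in JQ1 (green); bars are SE, and filled points passed an adjusted p of 0.05 by edgeR. The horizontal scales differ. HSPD1 and HSPE1 lie near -1 and HSPB8 below -2 in each treatment, while most ER points lie between 0 and 0.4.

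Of the knockout calls, those of HSPD1, HSPE1, HSPB8 and PDIA3 in each treatment were kept in all alternatives that tested them. So were those of HSPA5 and HSP90AA1 in DMSO and of PDIA6 in JQ1. PDIA4 in DMSO needed replicate 3 of knockout DMSO (0.0613) and replicates 2 (0.062) and 3 (0.0505) of wild-type DMSO, and HERPUD1 needed each of the 3 knockout DMSO libraries (0.05003 to 0.0631) and wild-type DMSO replicate 1 (0.0924). The ER count in DMSO was 2 without knockout DMSO replicate 3 and 8 without knockout JQ1 replicate 3, and under JQ1 it was 4 without wild-type JQ1 replicate 1 and 9 without knockout JQ1 replicate 3. Of all tested genes, 4.83% passed in DMSO without knockout DMSO replicate 3, and 5.79% in JQ1 without wild-type JQ1 replicate 1. Without knockout JQ1 replicate 3, 11.9% of all tested genes passed in DMSO and 10.5% in JQ1. The calls gained were then AHSA1, HSP90B1, PDIA6, HYOU1 and MANF in DMSO and HSPA8, HSP90B1, DNAJB11 and DNAJC3 in JQ1, all higher. Under JQ1 DNAJA1 needed each wild-type JQ1 library and replicates 1 and 2 of knockout JQ1 (0.0612 to 0.0978), and HYOU1 each wild-type JQ1 library and replicate 3 of knockout JQ1 (0.0541 to 0.157). MANF needed replicate 1 of knockout JQ1 (0.0635) and replicate 1 of wild-type JQ1 (0.0716). EDEM1 needed all 6 wild-type libraries, replicates 1 and 2 of knockout JQ1 and replicate 2 of knockout DMSO (0.051 to 0.131). When only the 6 JQ1 libraries were fitted, HSP90AA1 (0.0522), HSPA5 (0.0637), CALR (0.0623) and these 4 genes (0.0817 to 0.196) did not pass, which left PDIA3 and PDIA6 on the ER list. With no low-count filter HSPA5 (0.084), CALR (0.0502) and EDEM1 (0.342) did not pass, with library totals DNAJA1 (0.0713) and EDEM1 (0.132) did not, and with the authors' factors HYOU1 (0.0515) and EDEM1 (0.0508) did not, nor did HYOU1 with limma (0.0512). Library totals left 516 higher and 1158 lower calls among all genes in DMSO (754 and 964 with TMM).

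Among libraries whose groups were set side by side without a test, 12 cytosolic genes were higher and 3 lower with JQ1 in wild type without overlap, and 15 ER genes were higher and 0 lower. Of all tested genes 50.4% did not overlap, 24.4% higher and 26% lower. In knockout these counts were 7 and 3 for cytosolic and 14 and 0 for ER genes, against 42.3% of all tested genes, 20.3% higher and 22% lower. Between genotypes 4 cytosolic genes were higher and 3 lower in DMSO and 11 ER genes higher and 1 lower, against 29.6% of all tested genes (14.8% higher and 14.7% lower). Under JQ1 the counts were 2 and 4 for cytosolic and 12 and 0 for ER genes, against 23.1% (10.7% higher and 12.4% lower).

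The interaction tests directly for a difference between genotypes in the JQ1 response. It passed for 0.134% of all tested genes (0.0323% higher and 0.101% lower) and for 0.213% of those of at least 5 CPM (0.0356% higher and 0.178% lower). By edgeR 0 cytosolic and 0 ER genes passed, and DESeq2 and limma also called 0 of each list. At an unadjusted p under 0.05 there were 0 cytosolic genes and 1 ER gene, HERPUD1, against 8.37% of all tested genes, a share that the 40 members did not reach. Its response was more positive in knockout by 0.34 on the log2 scale (SE 0.12, adjusted p 0.445), from the levels given above: 12.9 to 14.9 CPM in knockout JQ1 against 11 to 11.4 CPM in knockout DMSO, and overlapping groups in wild type. The next smallest p-values on the ER list were those of PDIA6 (0.13, SE 0.07, adjusted p 0.676) and EDEM1 (0.10, SE 0.06, adjusted p 0.714). On the cytosolic list they were those of DNAJA1 (0.19, SE 0.09, adjusted p 0.611), HSP90AB1 (-0.12, SE 0.06, adjusted p 0.629) and CRYAB (-1.70, SE 0.88, adjusted p 0.635), the last on 3 counts in knockout JQ1. For HSPA1A the difference in response was -0.14 (SE 0.15) and for HSPA5 -0.07 (SE 0.06). A call in 1 genotype and not in the other, as for HSPA8 or XBP1, was therefore not shown to be a difference between genotypes.

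Other genes of these pathways were counted from lists chosen by function. By edgeR the interaction passed for 0 of the 41, 0 of the 56 and 0 of the 21 tested genes of these lists. Unlike JQ1 values in the genotypes, given below, were therefore not shown to be a difference between genotypes in the response. Of 41 tested further cytosolic and mitochondrial chaperones and stress genes (43 listed), 12 were higher and 3 lower with JQ1 in wild type and 13 and 7 in knockout, 36.6% and 48.8% against 33.1% and 34.4% of all tested genes and 46.4% and 49.1% of those of at least 5 CPM, shares near the background. HSPB1, the small heat shock protein that MK2 phosphorylates, was at 89, 91.5 and 92.5 CPM in wild-type DMSO, 71.9, 67 and 63.2 in wild-type JQ1, 101, 114 and 113 in knockout DMSO and 52.5, 51.3 and 72.4 in knockout JQ1. It was lower with drug without overlap, with log2 fold changes of -0.43 (SE 0.11, adjusted p 0.00525) and -0.89 (SE 0.11, adjusted p 1.32e-05), and did not pass by genotype (0.26 and -0.20). HSPA6, a strictly inducible HSP70, was at 1.97, 2.09 and 1.84 CPM and 1, 0.928 and 0.887 CPM in wild type and at 2.5, 2.54 and 2.46 CPM and 0.685, 0.609 and 0.665 CPM in knockout, with log2 fold changes of -1.06 (SE 0.16, adjusted p 0.000143) and -1.93 (SE 0.17, adjusted p 7.55e-07), opposite in sign to HSPA1A and HSPA1B. The collagen chaperone SERPINH1 was lower in each genotype (-0.64 and -0.92). The HSP70-binding ubiquitin ligase STUB1 rose by 0.63 and 0.57. CLU, the secreted chaperone clusterin, rose from 4 to 287 counts in wild type, a ratio of 76.1 (29.4 to 281), and from 3 to 43 in knockout, a ratio of 15.4 (4.94 to 77.8, both 95% exact binomial intervals). By genotype 3 of these 41 were higher and 1 lower in DMSO (UBB 0.27, CCT4 0.21 and TRAP1 0.21, and PTGES3 -0.31), and 1 higher and 1 lower in JQ1 (UBB 0.18 and CLU), 9.76% and 4.88% against 7.92% and 8.57% of all tested genes. The PTGES3 call needed wild-type DMSO replicate 2 (0.0519) and that of CCT4 replicates 1 (0.062) and 2 (0.0607) of that group and the low-count filter (0.0559). UBB under JQ1 was lost on leaving out any of 10 libraries, that is, all but replicate 2 of knockout JQ1 and replicate 3 of wild-type DMSO (0.0504 to 0.167). It was also lost under library totals, no low-count filter, only the groups compared, the authors' factors and limma (0.0706 to 0.165). CLU under JQ1 was lost with limma (0.099).

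Of 56 tested further genes of ER folding, translocation and degradation (57 listed), 28 were higher and 2 lower with JQ1 in wild type and 29 and 2 in knockout (53.6% and 55.4%). Of all tested genes 33.1% and 34.4% passed, and of those of at least 5 CPM 46.4% and 49.1%. The disulfide isomerase gene P4HB rose most clearly, from 352, 352 and 366 CPM to 712, 707 and 662 CPM in wild type and from 408, 404 and 411 CPM to 789, 766 and 840 CPM in knockout (0.96 and 0.97). ERO1B, which reoxidises these isomerases, was at 97.6, 96.2 and 97.9 CPM and 148, 156 and 158 CPM in wild type and at 103, 98.6 and 101 CPM and 217, 212 and 186 CPM in knockout, with rises of 0.66 and 1.02. The lectin OS9, of the degradation pathway, rose by 0.61 and 0.65. By genotype 8 were higher and 1 lower in DMSO, with PDIA5 at 0.59 and SRP9 at -0.38, and 10 higher and 0 lower in JQ1 (16.1% and 17.9%), with ERP29 at 0.41 and ERO1B at 0.41. These shares stood beside 7.92% and 8.57% of all tested genes and 10.4% and 11.5% of those of at least 5 CPM. DERL2 was higher in each treatment (0.50 and 0.55) but not with the authors' factors per gene and library (adjusted p 0.064 and 0.128) or limma on their signal (0.0794 and 0.0999).

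Of 21 tested genes of stress signalling and the PERK arm (22 listed), 10 were higher and 1 lower with JQ1 in wild type and 9 and 4 in knockout (52.4% and 61.9%). The background was 33.1% and 34.4% of all tested genes, and 46.4% and 49.1% of those of at least 5 CPM. The ER membrane factor CREB3L2 rose by 0.70 and 0.82 and asparagine synthetase, ASNS, by 0.60 and 0.75, while TRIB3 was lower (-0.41 and -0.85). TXNIP rose by 0.77 and 0.47. The knockout was lower in 3 and higher in 1 in DMSO and lower in 5 and higher in 0 in JQ1 (19% and 23.8%), where the called ER list genes were mostly higher. Among all tested genes the shares were 7.92% and 8.57%, and 10.4% and 11.5% among those of at least 5 CPM. In DMSO the calls were TXNIP (0.34), PPP1R15B (-0.22), CREB3L2 (-0.23) and ATF4. TXNIP was lost on leaving out replicate 2 or 3 of knockout DMSO or replicate 1 or 2 of wild-type DMSO (0.05007 to 0.0677), and PPP1R15B without replicate 1 or 2 of knockout DMSO or any wild-type DMSO library (0.0515 to 0.101) or the low-count filter (0.0706). ATF4, the factor of the PERK arm, was at 261, 264 and 266 CPM in wild-type DMSO, 240, 278 and 238 in wild-type JQ1, 204, 202 and 216 in knockout DMSO and 182, 175 and 202 in knockout JQ1, with log2 differences in knockout of -0.35 (SE 0.07, adjusted p 0.00438) and -0.44 (SE 0.07, adjusted p 0.000774). DDIT3, its target CHOP, was at 9.93, 11.6 and 11.7 CPM, 11, 15.3 and 12 CPM, 10.3, 10.3 and 11.5 CPM and 7.62, 7.18 and 7.82 CPM in the same order, lower in knockout under JQ1 (-0.75 (SE 0.12, adjusted p 0.00108)) and not passing in DMSO (-0.05, adjusted p 0.883). CHAC1, another target, had -1.34 (SE 0.25, adjusted p 0.00329) under JQ1.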

How the data were processed

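RNA was measured in 12 libraries, 3 per group. Per the labels' protocols, rRNA-depleted RNA was made into directional libraries. The submitters' processing notes list Trim Galore, cutadapt, FastQC, MultiQC, kallisto and DESeq2 and the build GRCh38.p10, without roles. What the authors deposited is 1 file of estimated counts per gene symbol, not all whole numbers, and a table of normalized signal for 32828 genes. Dividing rounded counts by the deposited signal gives a factor for each gene and library, whose median ran from 0.817 to 1.22 over libraries. It served only in alternatives. Whether counting used strand is not given in the sources used here, so overlapping and antisense genes are uncertain. HSPE1-MOB4, a readthrough symbol, overlaps HSPE1.

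For this work counts were rounded. Testing had been planned for raw counts, and the planned test was kept. Genes were filtered with filterByExpr over the 4 groups, which left 21698 of 56609 symbols, and libraries were scaled with TMM (factors 0.926 to 1.06). A single edgeR quasi-likelihood model held all 12 libraries (edgeR 4.0.16, limma 3.58.1, R 4.3.3). Adjusted p-values are Benjamini-Hochberg over all tested genes, with a threshold of 0.05. Each SE is the size of the log2 fold change over the root of its F statistic, and fold changes use a prior count of 0.125. The procedure was tested on simulated data with 200 genes changed by 1 on the log2 scale, of which it recovered 98% for JQ1 in knockout and 93% for the interaction, over 21154 genes. It also called 14 and 13 unchanged genes. The changed genes averaged at least 5 CPM and were changed in knockout JQ1 alone. Smaller changes, like most of those of the members, were not simulated, so these shares do not apply to them. The members and lists were chosen with earlier results of these data known. Values in every library are given for members past the threshold whose log2 fold change reached 0.5 in size in at least 1 comparison (at most the top 10 per list and comparison), for HSF1, XBP1, HSPA5, HSPA8 and HSP90AB1, and for the 3 smallest interaction p-values per list. Of the other lists, up to 3 genes per comparison with the smallest adjusted p are named, with HSPB1 and MAPKAPK2. Of the genes this rule names, 1 is not reported here. Outside this rule, library values of HSP90AA1 and PDIA3 and the mention of TRAP1 and of CREB3L2 in DMSO were chosen after their values were seen. Alternatives were DESeq2 1.42.0, library totals, other filters, only the groups compared, a replicate block, the authors' factors, limma on log2 of their signal plus 0.5, a threshold of 0.01, and leaving out each library. The summed CPM without knockout JQ1 replicate 3 was added after the data were seen. Proteins were not analysed here. Intervals on counts are exact binomial at 95% and cover counting error only.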

Additional observations from a re-analysis of the deposited data

How the results depend on the processing

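Counts of members called are given as cytosolic and then ER where both are named. JQ1 in wild type gave 8 and 12 calls. The cytosolic count was 5 with a minimum mean of 5 CPM, which removes HSPB8 and CRYAB and where 48.4% of all tested genes passed. It was 14 when only the groups compared were fitted, where 41.7% rather than 33.1% of all tested genes passed. JQ1 in knockout gave 10 and 14, with an ER count of 8 under library totals (35.3% of all genes, against 34.4%). The knockout in DMSO gave 4 and 4, with ER counts of 9 by DESeq2 (9.32% of all genes passed, against 7.92%), 8 with only the groups compared (12.7%) and 2 at a threshold of 0.01 (4.27%). The knockout in JQ1 gave 5 and 7. Here the cytosolic count was 3 with only the groups compared, and the ER count was 4 with no low-count filter (5.17% of all genes, against 8.57%), 2 with only the groups compared (4.66%) and 4 at 0.01 (4.45%). Leaving out each library gave 7 to 11 and 9 to 13, 8 to 13 and 11 to 14, 4 to 5 and 2 to 8, and 4 to 6 and 4 to 9 in the same order, and 0 throughout for the interaction, for which fitting only the groups compared was not run. In these fits the share of all tested genes that passed ran from 25.4% to 38%, 28.3% to 33.6%, 4.83% to 11.9% and 5.41% to 10.5%. For the interaction it ran from 0.0354% to 0.395%. Fold changes of the summed CPM moved for the cytosolic list in wild type from 1.12 to 1.03 (library totals) and 1.04 (totals without RN7SK, RN7SL1, RN7SL2 and RMRP), for the ER list in wild type from 1.24 to 1.13 and 1.15, in knockout from 1.25 to 1.16 and 1.18, and for the knockout in DMSO from 1.10 to 1.07 with library totals. The cause of these moves was not tested beyond the removal named. The calls followed through the alternatives were those of members, of MAPKAPK2 by genotype and of up to 3 genes per other list and comparison. None of them changed direction. Other named calls of those lists, such as that of TRAP1, were not followed.

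With the replicate number as a block the counts were 8 and 13, 10 and 14, 4 and 4, 5 and 5, and 0 and 0, and XBP1 (JQ1 in knockout), HYOU1, EDEM1 and UBB (knockout in JQ1) did not pass, at 0.0667, 0.0661, 0.073 and 0.0771. The shares of all tested genes that passed with the block were 31.3%, 32.9%, 6.85%, 7.23% and 0.0968%. Same-numbered libraries did not deviate together (correlation over 0.1 in 4 of 18 pairs, median -0.09), so the numbers do not pair them. At these depths HSPB8 and CRYAB rest on few counts, and the other members do not.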

Other observations

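The neighbours of HSPD1 and HSPE1 were examined after the values of these genes were seen. Within 1 Mb lay 11 further tested protein-coding genes, the readthrough symbol HSPE1-MOB4 not counted, and noncoding genes were not examined. Of the 11, MOB4, a kinase-scaffold gene just beyond HSPE1, was the 1 called lower in knockout. Its mean went from 36.3 to 18.9 CPM in DMSO (log2 fold change -0.95, SE 0.11, adjusted p 4.02e-05 by edgeR) and from 36.1 to 17 CPM in JQ1 (-1.09, SE 0.11, adjusted p 1.09e-05). The readthrough symbol HSPE1-MOB4 had -0.93 (SE 0.17, adjusted p 0.0021) and -0.73 (SE 0.16, adjusted p 0.0116). On the far side of HSPD1, COQ10B had 0.05 and 0.05 and SF3B1 -0.03 and -0.22, and beyond MOB4, RFTN2 had 0.03 and -0.35, none of which passed. The median over the 11 neighbours was -0.03 in DMSO and -0.05 in JQ1.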
